A study of Mus musculus with 18 samples.

Results

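Of the 65983 accessible regions in the ATAC-seq table of mouse CD4 T cells, 4355 (6.60%, 95% interval 6.41 to 6.79) overlapped an exon of at least 1 gene and the promoter of none. These regions were found by their annotation alone: at least 1 overlap entry had a class containing E (exon) and no entry had a class containing P (promoter). The remaining regions were 21558 that lay inside a gene but in introns only, 17150 between genes and 22920 that touched a promoter. All intervals here are Wilson intervals, which cover counting error over regions or genes only. Neighbouring regions and regions of 1 gene share their source, so these are not replicates and no p-value is given.

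ATAC-seq uses a transposase that cuts and tags DNA where it is not wrapped tightly by nucleosomes, so that an accessible region is a stretch with many insertions. The cells were naive CD4 T cells stimulated through CD3 and CD28 and cultured for Th1 polarisation with IL-2, IL-12 and an antibody against IL-4. The 18 samples formed 6 groups of 3, namely Id3-KO and WT Th1 cells at 24 h, Id3-KO and WT Tcmp cells at 72 h, and Id3-KO and WT Teff cells at 72 h, with the cell labels used as given. Id3 is an inhibitor of E proteins, transcription factors of the basic helix-loop-helix family. The sources used here do not give the strain, sex or age of the mice, the way Id3 was removed, or whether replicates were separate mice or cultures. With no value per sample, the loss of Id3 could not be checked.

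The regions, their widths, windows and annotation were identical under all 6 contrasts of the table, so what follows holds for the joint region set and not for a genotype, a time or a cell label. The table gives no value per sample. Its fold changes and p-values do not belong to the regions in their rows and were not used, and no change of any exon region between Id3-KO and WT cells is reported. Of 31 listed genes for T cell receptor signalling and coreceptors, 30 had a region of some class, among them Cd3g and Cd4. Of the CD8 genes in that list, Cd8a had none and Cd8b1 had 1 promoter region. In a list for other lineages 11 of 17 genes had a region, and in a list of chromatin regulators 24 of 25. Having a region of some class is therefore no check of the cell type.

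Exons carry the coding and untranslated parts of a transcript. Accessible DNA over an exon away from annotated promoters can belong to an enhancer that happens to lie in coding sequence. It can also belong to an alternative promoter that the annotation does not hold or, in a last exon, to the 3′ end of a gene. Introns make up most of the length of mammalian genes, so that most accessible sites inside genes lie in introns. The class of a region is an overlap with an annotated exon, and it does not say how much of the region the exon covers or where in the region the insertions peaked. Base sequences of the regions were not used here.

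How far the promoter class reaches upstream could be read from the table. Among 6700 entries with the class P alone that had an exon of their own gene listed downstream, 6696 (99.9%) had it under 3 kb away, and the largest distance was 3000 bp. For these entries the promoter class therefore reached up to 3 kb upstream of the gene's nearest exon. Exons inside that reach of any gene are not among the 4355 regions. Promoter entries were also listed far inside genes, as in Pdzd2 at 190.7 kb from its most upstream listed region. Exons away from a gene's first exon can thus be left out too. How far the class reaches downstream of a gene's start, and so which first and early exons it takes out, was not determined here.

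Exon regions were of ordinary size. They were 300 to 1050 bp wide with a median of 550 bp (quartiles 500 and 600), against medians of 550 bp for intron-only, 550 bp for intergenic and 600 bp for promoter regions. The number of windows, the short overlapping stretches that were tested and then merged into a region, averaged 6.04 ± 2.08 (SD over 4355 regions) in exon regions. It averaged 5.74 ± 2.13 in intron-only, 5.96 ± 2.13 in intergenic and 6.86 ± 2.43 in promoter regions (SD over regions). The spread within each class was thus several times larger than the gaps between exon, intron-only and intergenic means. Exon regions together covered 2.41 Mb, against 11.6 Mb for intron-only regions and 13.7 Mb for promoter regions.

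The small excess over introns recurred by chromosome. On 18 of the 20 chromosomes with exon regions their mean number of windows was above that of intron-only regions, the exceptions being chromosomes 3 and 16. It was above the intergenic mean on 12 chromosomes and above the promoter mean on 0. At the large end, 150 exon regions (3.44%, interval 2.94 to 4.03) had 10 or more windows, against 2.24% (2.05 to 2.45) of intron-only, 3.29% of intergenic and 12.0% of promoter regions. Regions of a single window were 3.86% of exon and 4.72% of intron-only regions. Windows were contiguous in most exon regions, and 74 (1.70%) had a gap in the run of windows.

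**Figure D1:**
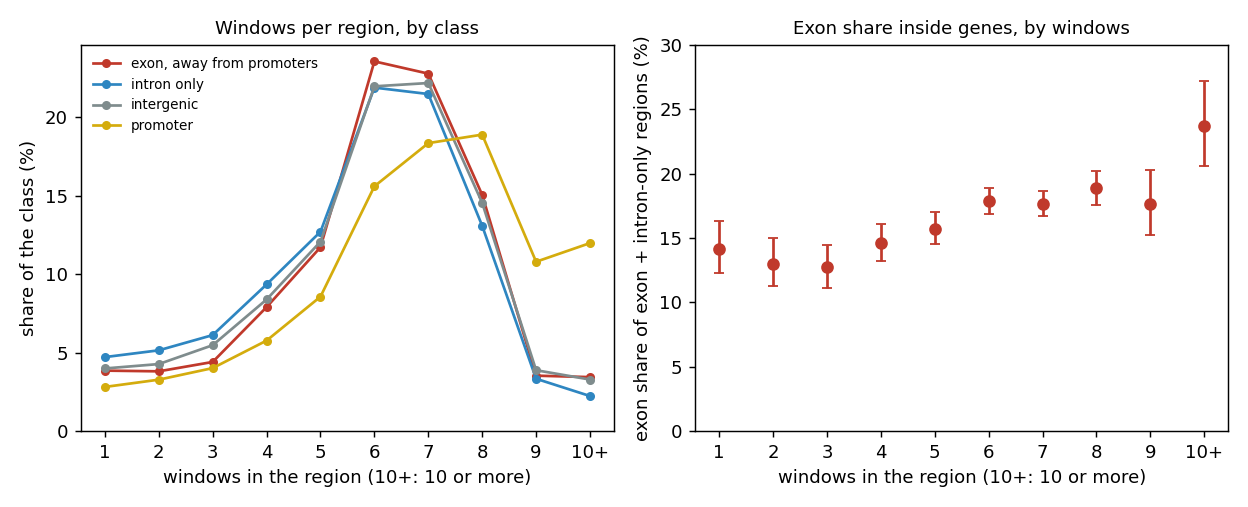
Left, the share of each class (%) with a given number of windows per region, as points joined by lines for exon regions away from promoters, intron-only, intergenic and promoter regions; the exon curve peaks at 6 windows (23.5%) and the promoter curve at 8 (18.9%). Right, exon regions as a share (%) of exon plus intron-only regions at each number of windows, with 95% Wilson intervals; the share lies between 12.7% and 14.6% at 1 to 4 windows and is 23.7% at 10 or more.

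Because a wider region has more room to meet an exon, the exon share was also read at a fixed number of windows. Among regions inside genes and away from promoters, exon regions made up 12.7% (interval 11.1 to 14.5) of those with 3 windows. This was the lowest share, with 14.2% at 1 window and 13.0% at 2. The share was 17.9% (16.9 to 18.9) at 6 windows, 17.6% at 7, 18.9% at 8 and 17.6% at 9. It was 23.7% (20.5 to 27.2) at 10 or more. How far the added width alone moves this share was not tested.

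Some intron-only regions missed the exon class by a small margin. Of 20401 intron-only regions of a single gene, 262 (1.28%) ended within 50 bp of an exon of that gene. They had a mean of 5.29 ± 2.05 windows (SD over 262 regions), against 6.04 ± 2.08 in exon regions. A wider region at the same place would have met the exon, and the part of this in the lower mean was not tested. An exon of the gene within 1000 bp was listed for 4118 intron-only regions (20.2%), with a mean of 5.65 ± 2.13 windows. The length of overlap with the exon is not given for the exon regions, so those just inside the limit could not be listed.

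Chromosomes differed modestly in the share of exon regions. It ran from 5.06% on chromosome X (73 of 1442 regions, interval 4.05 to 6.32) to 7.74% on chromosome 7 (306 of 3953, interval 6.95 to 8.62), with a median of 6.50% over 20 chromosomes. Chromosomes 19 (7.73%), 11 (7.62%) and 1 (7.54%) were next below chromosome 7, and their intervals overlap its own. Chromosome 18 (5.30%), 13 (5.34%) and 12 (5.47%) lay at the low end with chromosome X, and these 4 likewise overlap one another. Among regions inside genes and away from promoters the exon share was 21.7% on chromosome 7 and 12.6% on chromosome 18. On chromosome X it was 15.6% (12.6 to 19.2), so X was the lowest of the 20 only as a share of all regions. Chromosome Y had 15 regions and 0 in this class, which allows a share of up to 20.4% by the interval.

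**Figure D2:**
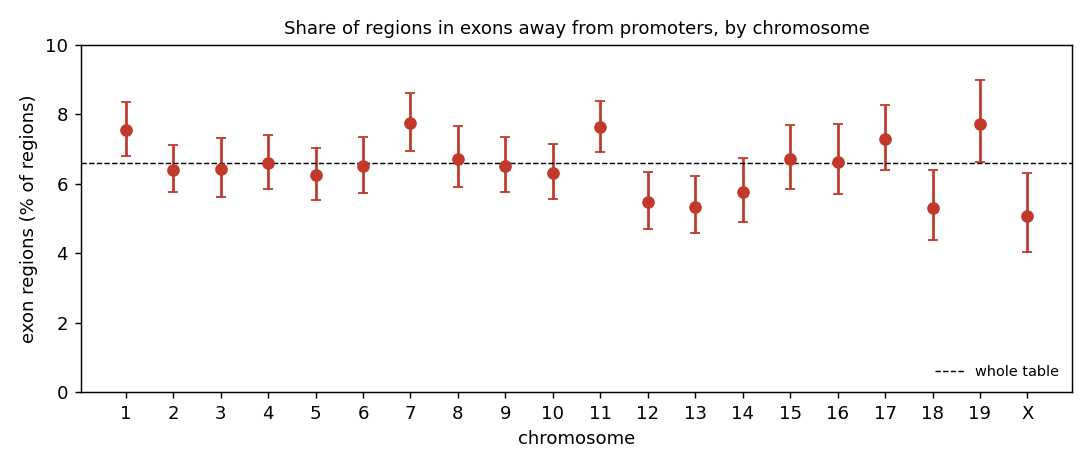
Exon regions away from promoters as a share of all regions (%) on each chromosome, with 95% Wilson intervals; the dashed line is the share in the whole table, 6.60%. Chromosomes X, 18, 13 and 12 lie lowest, at 5.06% to 5.47%, and chromosomes 7, 19, 11 and 1 highest, at 7.54% to 7.74%.

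Most exon regions belonged to 1 gene. An exon of a single gene was hit by 4238 regions (97.3%), exons of 2 genes by 116 and exons of 3 genes by 1. Of these 117 shared regions, 80 (68.4%) lay in exons of genes on opposite strands, and in 3 the same name was listed more than once. Besides their exon entries, 442 of the 4355 regions (10.1%) also lay in an intron of another gene, and in 304 of them the intron gene was on the strand opposite to the exon gene. The plus strand held the gene of 2144 of the 4238 single-gene regions (50.6%). A further gene with an exon within 5 kb was listed at 931 regions (21.4%).

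The widest shared region lay on chromosome 17 from 8149851 to 8150800 (GRCm39), with 950 bp and 14 windows, in exons of Tagap on the plus strand and of the predicted gene Gm1604a on the minus strand. Tagap encodes a GTPase-activating protein of activated T cells. Among the other shared regions, 1 on chromosome 11 (96243601 to 96244400, 11 windows) joined an exon of the homeobox gene Hoxb2 with one of an unnamed minus-strand gene model. Another on chromosome 10 (127006501 to 127007300, 11 windows) lay in B4galnt1, a ganglioside synthase, and in Slc26a10, a gene of the anion transporter family on the other strand. The Hoxb2 and B4galnt1 regions were picked from the largest shared regions after their values were seen.

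Position along the gene was read from the listed neighbouring exons. For each of the 4238 single-gene regions the table lists further exons of the same gene within 5 kb on either side. Further exons were listed on both sides of 1753 regions (41.4%, interval 39.9 to 42.9), upstream only of 1602 (37.8%, 36.4 to 39.3), downstream only of 283 (6.68%, 5.97 to 7.47) and on neither side of 600 (14.2%, 13.1 to 15.2). A region with exons upstream only lies in the last exon of its gene or in front of an intron longer than 5 kb, and the table does not separate these. The shares were close on the 2 strands, with upstream only at 37.6% on the plus and 38.0% on the minus strand.

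Exon regions that touch a promoter are left out by the choice of regions, and the part of this choice in the excess of upstream over downstream was not tested. Intron-only regions of a single gene had exons upstream only at 16.9% and downstream only at 15.5%. An intron lies between exons, so these regions cannot lie in a last exon and are no control for that excess. Intron-only regions had no exon of their gene within 5 kb in 42.5% of cases, against 14.2% of exon regions. Regions with exons on both sides lay a median of 1055 bp from the next exon upstream and 1131 bp from the next downstream. The mean number of windows was 6.03 with exons on both sides, 6.02 upstream only, 6.20 downstream only and 5.98 on neither side, differences well below the spread (SD over regions 1.85 to 2.23).

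**Figure D3:**
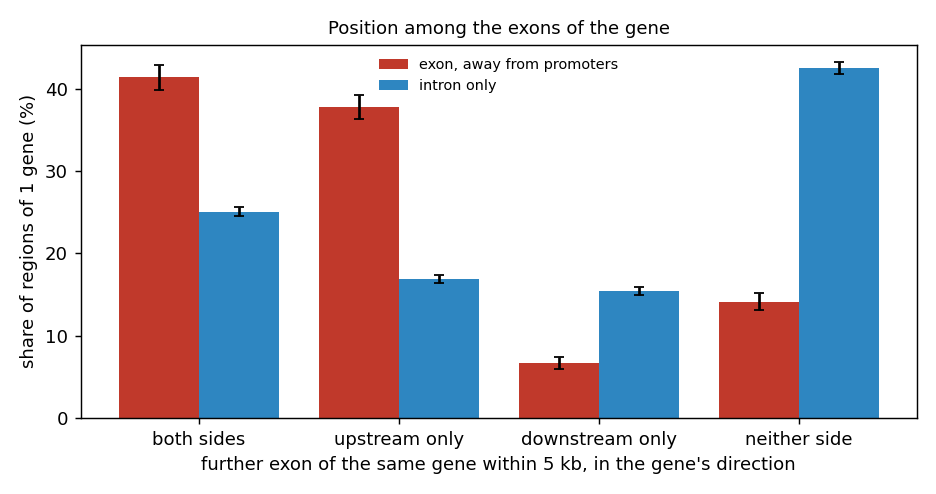
Share (%) of single-gene regions with a further exon of the same gene listed within 5 kb on both sides, upstream only, downstream only or on neither side, for exon regions away from promoters and for intron-only regions, with 95% Wilson intervals. Upstream only reaches 37.8% in exon regions and 16.9% in intron-only regions.

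The 4355 regions held 4473 exon entries of 3754 genes, or 16.4% (interval 15.9 to 16.9) of the 22888 genes named in any overlap entry. Most of these genes, 3183, had 1 exon region, 450 had 2, 101 had 3, and 20 had 4 or more. A gene symbol named 3103 of them, an Ensembl ID alone named 427, and 224 were predicted or RIKEN models. An exon region was found at 20.1% of all genes with a symbol in the table but at 8.04% of those with an Ensembl ID alone. Gene models without a symbol also differed in structure: 46.3% of their single-gene regions had no further exon on either side, against 10.1% for genes with a symbol.

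Genes with many accessible regions more often had one in an exon. Of the genes with 1 region of another class, 7.95% (912 of 11466) also had an exon region. The share was 15.9% for 2 to 3 other regions, 28.7% (719 of 2509) for 4 to 7, 38.6% for 8 to 15 and 46.5% (118 of 254, interval 40.4 to 52.6) for 16 or more. Long genes have room for more regions of every class, and gene length was not used here.

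A listed promoter region accompanied most exon regions. Of the 3754 genes, 2926 (77.9%, interval 76.6 to 79.2) also had a promoter region in the table, close to the 76.8% (75.7 to 77.9) of genes that had an intron-only region and no exon region. Among genes with a symbol it was 83.3%, and among genes with an Ensembl ID alone 51.5%. For 524 genes (14.0%) the exon regions were the only entries of any class. Absence of a listed promoter region does not show a closed promoter. Of 10 genes that every cell uses, checked after the table had been seen, 9 had a listed promoter region and Ppia had no region at all.

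Most exon entries lay downstream of a listed promoter region of their gene. Exons do not lie upstream of a gene's start, and regions that touch a promoter are left out by the choice of regions. A position downstream of the promoter was thus partly set in advance. The nearest listed promoter region can lie inside the gene, so the distance to it is not the depth into the gene. Where the gene had a promoter region, 3308 of 3561 exon entries (92.9%, interval 92.0 to 93.7) were downstream of the nearest one, by a median of 15.35 kb (quartiles 6.10 and 37.15). Intron-only entries were downstream in 82.2% of cases (81.7 to 82.8), by a median of 21.55 kb (8.45 and 54.4). Within the genes that had regions of both classes the medians came closer, 24.475 kb for exon and 23.5 kb for intron-only entries. The share downstream was 90.4% (89.1 to 91.5) and 78.4% (77.5 to 79.4) there. For the other entries the nearest listed promoter region of the gene lay further along the gene, in its direction.

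**Figure D4:**
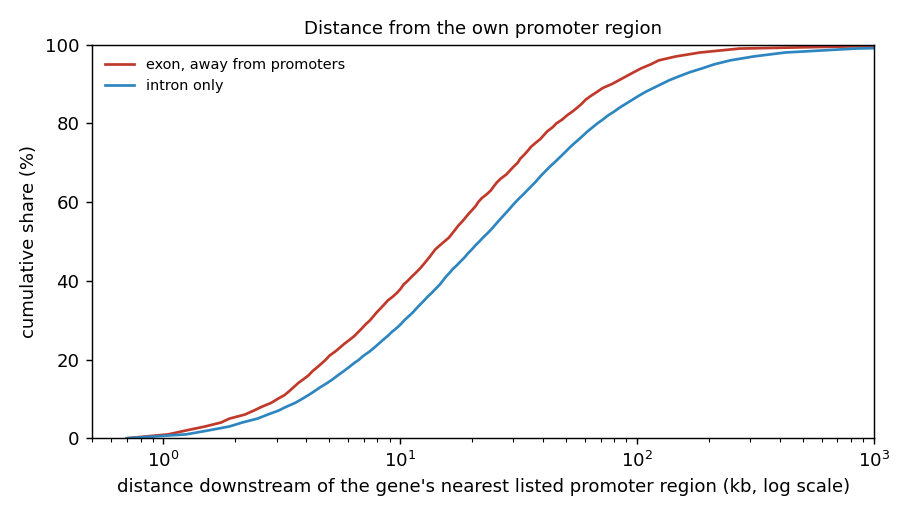
Cumulative share (%) of exon entries away from promoters and of intron-only entries against the distance downstream of the gene's nearest listed promoter region (kb, log scale). The medians are 15.35 kb for exon and 21.55 kb for intron-only entries.

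Spacing to other accessible regions was alike in all classes. The nearest other region was a median of 4.65 kb from an exon region, against 4.35 kb from an intron-only, 4.80 kb from an intergenic and 4.40 kb from a promoter region. Within 5 kb there was another region for 53.1% of exon regions and 55.0% of intron-only regions. The nearest region was a promoter in 37.8% of exon regions and another exon region in 15.4%. For intron-only regions it was a promoter in 26.1% and an exon region in 6.65%.

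Exon regions were listed at 70 of the 202 genes of 7 lists that had a region of any class (34.7%, interval 28.4 to 41.4), against 16.4% of all genes of the table. The lists cover T cell programmes, chromatin regulators and other lineages, and were chosen with earlier results of these data known. Their genes had a median of 4 overlap entries, against 2 for all genes. The share with an exon region was larger in genes with more regions of other classes, and the part of this in the share of the lists was not tested. By list the median was 5.5 entries for T cell transcription factors (41.4% with an exon region) and 4.5 for chromatin regulators (29.2%). It was 2.5 for cytokines, chemokines and their receptors (39.5%) and 2 for the helix-loop-helix genes (18.8%). Nothing particular to the lists is read from these shares.

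Among transcription factors of T cells, 24 of 58 genes (41.4%, interval 29.6 to 54.2) had an exon region. Nfkb1, which encodes the p105 precursor of the NF-kB subunit p50, had 4 on chromosome 3, minus strand, beside 7 promoter and 6 intron entries. They started at 135291201, 135296201, 135324851 and 135368051 and had 4, 6, 2 and 8 windows. The first 3 lay 8.25, 3.15 and 1.70 kb downstream of a listed promoter region of the gene and the last one 28.2 kb downstream. Nfkb2, whose product p100 gives p52, had a single but large exon region on chromosome 19 (46297201 to 46297950, 10 windows) with further exons 8 bp upstream and 144 bp downstream.

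Lef1, a partner of Tcf7 in naive and memory T cells, had 3 exon regions and 16 intron entries but no listed promoter region. The 3 on chromosome 3 ran from 130909651 to 130910200, from 130984351 to 130984750 and from 130993501 to 130994050, with 6, 3 and 6 windows. The first was also the most upstream region of the gene in the table, with a further exon 456 bp upstream of it. Tcf7 itself had 1 exon region on chromosome 11 (52144751 to 52145250, 5 windows), 20950 bp downstream of its promoter region and with exons upstream only.

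Tbx21, the Th1 master regulator T-bet, likewise had 1 exon region and no listed promoter region. The exon region lay on chromosome 11 from 96992401 to 96993050, with 8 windows and a further exon 1490 bp downstream. Irf2, an interferon regulatory factor that represses interferon-induced genes, had 2 on chromosome 8. A region of 1 window started at 47271501, 78.55 kb downstream of the promoter region, and a broad one of 800 bp and 11 windows started at 47297601, 104.65 kb downstream. Both had further exons downstream only, 26 bp and 549 bp away.

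Stat4 and Stat5b encode signal transducers that carry cytokine signals to the nucleus. The Stat4 region on chromosome 1 (52139551 to 52140200, 8 windows) also lay in an exon of an unnamed gene model on the same strand, and the annotation does not tell these genes apart there. The Stat5b region on chromosome 11 (100695201 to 100695800, 7 windows) had exons on both sides.

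Ikzf3, the Ikaros family factor Aiolos, had 2 exon regions with exons upstream only. Measured in the direction of the gene from the nearest promoter region, they lay at 12.2 and -23.6 kb, the negative value being upstream. Zbtb7b, the CD4 lineage factor ThPOK, had 1 with exons upstream only and 7 windows. Nr4a1, an orphan nuclear receptor induced by T cell receptor signals, had 1 of 700 bp and 9 windows on chromosome 15 (101156151 to 101156850).

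Of the 16 E protein, Id protein and other helix-loop-helix genes 3 (18.8%, interval 6.59 to 43.0) had an exon region. This share was close to the 16.4% of all genes of the table, and the 3 genes were Bhlhe40, Tal1 and Mycn. None of Id1, Id2, Id3, Id4, Tcf3, Tcf4 and Tcf12 was among them, and nothing particular to these genes is read from that. For Id3 the table holds 2 regions, both of the promoter class. Bhlhe40, a repressor with a role in cytokine production by T cells, had its exon region as its only entry (chromosome 6, 108642401 to 108643000, 7 windows), 2741 bp downstream of a further exon. Tal1, a factor of blood stem cells and the erythroid lineage, had one of 8 windows on chromosome 4 (114920301 to 114920950) with exons on both sides.

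Genes of T cell receptor signalling and coreceptors had exon regions in 10 of 30 cases (33.3%, interval 19.2 to 51.2). Both costimulatory and inhibitory receptors were among them. Cd28, the main costimulatory receptor, had 2 regions on chromosome 1 (60804051 to 60804700 and 60810851 to 60811450, 8 and 7 windows), 18.2 and 25.0 kb downstream of its nearest promoter region. Its inhibitory counterpart Ctla4 had 1 (60952351 to 60953000, 8 windows) 3.85 kb downstream, with exons 422 bp upstream and 772 bp downstream. Havcr2, which encodes TIM-3, had 2 on chromosome 11 with 8 and 4 windows. Btla, an inhibitory receptor of the CD28 family, had 1 of 700 bp and 9 windows on chromosome 16 (45072051 to 45072750), beside 3 intron entries and no listed promoter region.

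Cytokines, chemokines and their receptors had exon regions in 15 of 38 genes (39.5%, interval 25.6 to 55.3). Il6ra, the ligand-binding chain of the interleukin-6 receptor, had the most of all list genes, with 5 on chromosome 3, minus strand, among 16 entries. They started at 89771251, 89776751, 89778201, 89783801 and 89797451 and had 8, 6, 5, 2 and 6 windows. All lay downstream of the single promoter region, by 48.05, 42.65, 41.25, 35.8 and 21.95 kb. Il6st, the signalling chain gp130 that Il6ra pairs with, had 3 on chromosome 13 with 5, 8 and 5 windows, and the 2 farthest, 32.75 and 34.6 kb downstream of a promoter region, had exons upstream only.

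Tnf, an inflammatory cytokine, had a single entry, an exon region on chromosome 17 (35419301 to 35419950, 8 windows) 110 bp from the next exon upstream. Il10, an anti-inflammatory cytokine, had 1 of 700 bp and 9 windows on chromosome 1 (130950251 to 130950950), 3.55 kb downstream of its promoter region. Il18rap, a chain of the interleukin-18 receptor through which Th1 cells respond to IL-18, had 2 of 5 windows each, 7.25 and 33.4 kb downstream. The Th2 cytokine genes Il4 and Il13 had 1 each of 6 windows, both with exons upstream only, and were picked after their values were seen.

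Effector, survival and adhesion genes had exon regions in 8 of 25 cases (32.0%, interval 17.2 to 51.6), all 8 also with a promoter region. Cd44, a hyaluronan receptor that marks activated and memory T cells, had 3 on chromosome 2, minus strand (starting at 102642951, 102661751 and 102683501, with 8, 8 and 7 windows). They lay 87.95, 69.15 and 47.45 kb downstream of the promoter region. Fas, a death receptor, had 1 of 8 windows on chromosome 19 (34284051 to 34284700) with a further exon downstream only.

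Chromatin regulators had exon regions in 7 of 24 genes (29.2%, interval 14.9 to 49.2). Kmt2a, a histone H3 lysine methyltransferase, had 2 on chromosome 9 with 6 and 4 windows, with further exons 165 and 170 bp downstream. Hdac4, a class II histone deacetylase, had 2 of 7 windows each among 30 entries. Setd2, another histone methyltransferase, had 1 of 8 windows with exons on both sides. In the list for other lineages 3 of 11 genes had an exon region, namely Ebf1, Neurod1 and Myod1, and for Neurod1 and Myod1, regulators of neurons and of muscle, it was the only entry.

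**Figure D5:**
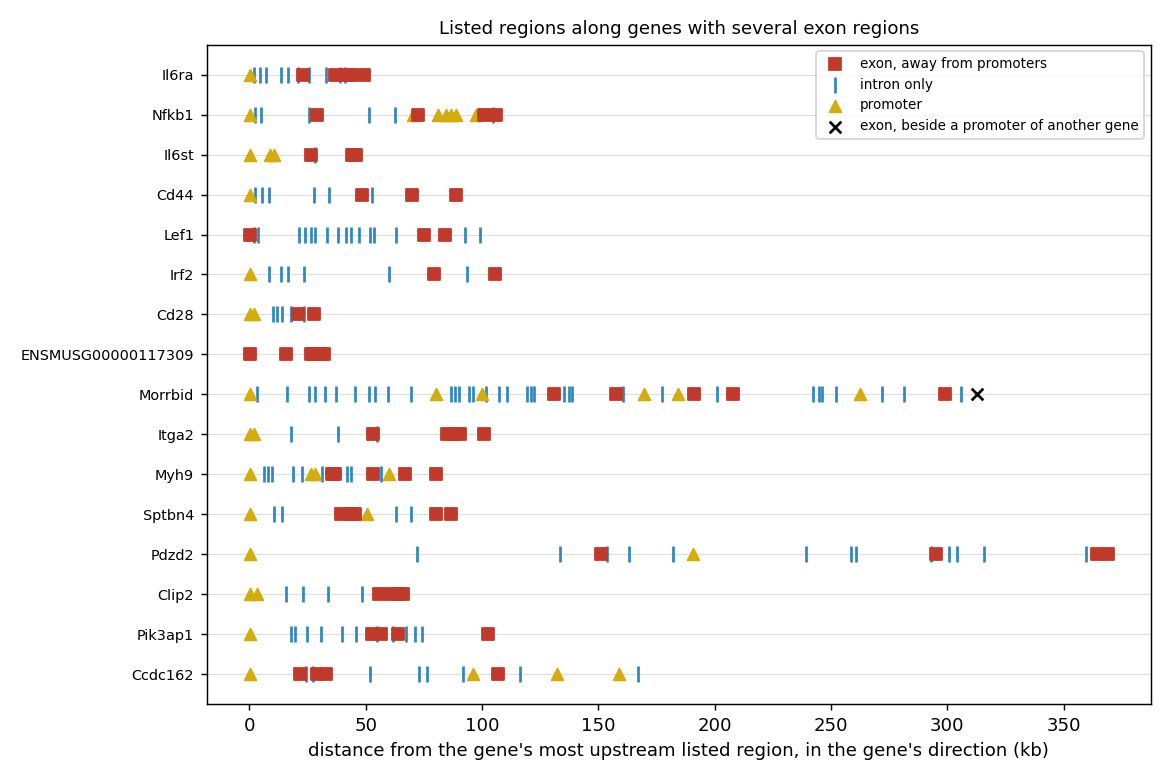
Listed regions along 16 genes with several exon regions, each row 1 gene, as distance from the gene's most upstream listed region in the direction of the gene (kb); squares are exon regions away from promoters, bars intron-only, triangles promoter entries, and the cross an exon beside a promoter of another gene. The listed regions of Il6ra span 48.775 kb with the promoter at the left end, and its 5 squares lie at 23.0 kb or beyond. The listed regions of Morrbid span 312.525 kb.

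Over the whole table, 1 gene had 6 exon regions, 5 genes had 5 and 14 genes had 4. The gene with 6 was a model with an Ensembl ID only, ENSMUSG00000117309, on chromosome 16, minus strand, between 10691451 and 10724000, and no entry of another class. All 6 had exons on both sides and 4 to 6 windows, 4 also lay in an intron and 1 in an exon of the plus-strand gene Rmi2. Morrbid, a long noncoding RNA gene that in myeloid cells restrains the death gene Bcl2l11, had 5 exon regions among 47 entries, of which 3 had no further exon within 5 kb. Il6ra, described above, also had 5.

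Itga2, the collagen-binding integrin subunit CD49b, had 5 exon regions on chromosome 13. The first 4, from 114969251 to 114985950, had 7, 5, 6 and 7 windows, and the fifth, at 115017051, had 8. Myh9, the heavy chain of nonmuscle myosin, had 5 on chromosome 15 with 5 to 8 windows, the middle one with further exons 218 bp upstream and 14 bp downstream. Sptbn4, a spectrin of the axonal membrane skeleton, had 5 on chromosome 7, the largest of 750 bp and 10 windows (27060651 to 27061400).

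Of the 14 genes with 4 exon regions, those with the largest summed width of exon regions are described here, and Thada tied with the last of them at 2300 bp. Pik3ap1, the adaptor BCAP of phosphoinositide 3-kinase signalling in lymphocytes, had them on chromosome 19 with 6, 7, 9 and 7 windows, 52.1 to 101.55 kb downstream of its promoter region. Clip2, a microtubule linker, had its 4 within 51.5 to 61.9 kb downstream of a promoter region on chromosome 5. Pdzd2, a protein of several PDZ domains, had 4 on chromosome 15 between 12371101 and 12589300, and Ccdc162, a coiled-coil gene, 4 on chromosome 10 with 1 to 11 windows.

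The 5 exon regions with most windows were at other genes. Beside the Tagap region they were 1 of 14 windows in Gm46637 on chromosome 18 (61622101 to 61623050), 1 of 14 windows in Gja5 on chromosome 3 (96983301 to 96984250), 1 of 13 in Foxn1 on chromosome 11 (78250851 to 78251750) and 1 of 13 in Cabp4 on chromosome 19 (4185501 to 4186400). Gja5 encodes the gap junction protein connexin 40 of heart and arteries, Foxn1 the factor that makes thymic epithelium, and Cabp4 a calcium-binding protein of photoreceptors. The Gja5 region had no further exon of Gja5 within 5 kb and lay 170.35 kb downstream of the nearest promoter region of that gene. It also lay in an intron of the RIKEN model 4930573H18Rik on the minus strand. Foxn1 had 2 exon regions as its only entries. The table holds no expression values, so whether these genes are transcribed in the cells was not tested.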

How the data were processed

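ATAC-seq regions of 18 mouse CD4 T cell samples in 6 groups of 3 were taken from the authors' deposited table. Per the submitters' processing notes, Trim Galore, BWA, Picard and edgeR were used, in unstated versions and roles, with the build GRCm39. The merging of windows and the gene annotation are not described there. Per the file headers the table gives region position, width in bp, number of windows and overlapping and flanking genes. These deposited columns have no other unit. The 395898 rows are 65983 regions under 6 contrasts, and all columns used were identical in the 6. An earlier examination found that the deposited p-values follow the order of regions along the genome, so the fold changes and p-values were left out. Library depth is unknown.

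Classes, neighbouring exons (left and right columns, at most 5 kb, turned to the gene's strand) and distances to promoter regions were computed with Python 3.11.15, pandas 2.3.3 and SciPy 1.17.1, and the parsing was tested on simulated data. The members, lists and named genes were chosen with earlier results of these data known. Named were up to 30 list genes with most exon regions (ties by the widest), the 10 genes with most exon regions (ties by summed width) and the 5 exon regions with most windows; others named were chosen after their values were seen, and a few genes named by the rule are not reported here. Older symbols were looked up in RefSeq names (GRCm38.p6), which matched no further list gene. Planned results on exon parts, base composition, motifs and sequences need a GRCm39 genome or annotation and were not run.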

Additional observations from a re-analysis of the deposited data

How the results depend on the processing

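Results were recomputed under 6 other settings, 5 of them planned and 1, the limit to genes with a symbol, chosen after seeing the data, as were the shares by further exons. Of 54 values, 46 stayed within the interval of the reported share, at the reported median or within 1.5 times the reported count, and 8 moved. The share of exon regions among all regions, 6.60% as reported, was 5.93% with regions whose every entry has the class E alone, 6.27% without predicted and Rik models and 5.63% with gene symbols only. The share of genes with a listed promoter region, 77.9%, became 79.9% with class E alone and 82.7% with symbols only. The share with exons on both sides, 41.4%, became 43.5% and 45.4% under the same settings. With regions of exactly 1 exon gene, the share of single-gene regions is 100% by construction. The shares by further exons rest on single-gene regions alone, so they could not change under that setting. Counts of exon regions ran from 3718 to 4282 over the settings, against 4355 as reported, and a limit of 1.5 times is wide for them. Part of the 46 values thus says little about how firm the results are. Each moved value comes from the regions that the setting removes.

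No paired analysis was possible because values of single samples are not in the table analysed, and leaving out a replicate or another normalization could not be run for the same reason. Not run for want of a GRCm39 genome or annotation were a 50 bp minimum overlap with an exon, motif and composition counts, and a 5 kb distance from any annotated start. What library depth limits could not be judged.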

Other observations

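Some groups of genes that share a symbol stem, picked after the table had been seen, had exon regions at different rates. They were listed at 12 of 26 integrin subunit genes (46.2%, interval 28.8 to 64.5), among them Itga5, Itgae and Itgb3, and at 15 of 32 myosin genes (46.9%, 30.9 to 63.6), among them Myo5a and Myo18a. Spectrins had them in 4 of 6 genes and kinesins in 13 of 36 (36.1%, 22.5 to 52.4). Solute carriers had them in 72 of 307 genes (23.5%, 19.1 to 28.5). Zinc finger genes of the Zfp stem had them in 42 of 344 (12.2%, 9.16 to 16.1). Ribosomal protein genes had them in 1 of 71 (1.41%, 0.249 to 7.56), and this was Rpl22. The median number of overlap entries per gene was 3.5 for integrins, 5 for myosins, 2 for solute carriers, 1 for the Zfp genes and 1 for ribosomal protein genes, and the part of gene length or exon number in these rates was not tested.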
